A study of Mus musculus with 4 samples.

Results

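Laminins, integrins and their adhesion partners anchor the satellite cell, the stem cell of skeletal muscle, between the fibre and its basement membrane. The genes described here were chosen by name: laminin chains (Lama, Lamb, Lamc), integrin alpha and beta chains (Itga, Itgb), and the named partners Nid1, Nid2, Hspg2, Agrn, Dag1, Ilk, Tln1, Tln2, Vcl and Fn1. They come to 44 of 18193 genes measured, read by 96 probe sets. The other 5 genes that the naming rule would take in are not analysed here.

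Satellite cells of young (3 to 6 months) and aged (20 to 25 months) adult C57BL/6J mice were compared on Affymetrix arrays, in a series whose title places it in work on p38 signalling and self-renewal of aged muscle stem cells. Both ages were handled alike: the labels name no engineered allele and no agent, and cells taken directly from hindlimb muscle were sorted for the surface proteoglycan syndecan-4. Each age had 2 independent pools of RNA, with 1 array per pool, from 4 to 8 mice per the series text and 6 to 8 per the sample text. Mice within a pool are averaged, so the replicates are these 4 pools. Each p-value rests on the spread between pools of the same age, in part borrowed from all genes by the fit (2 residual and 3.56 prior degrees of freedom).

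Values are taken as log2, and each is relative to the median of its probe set over the 4 arrays. A value of 1 is therefore a doubling above that median, and no gene can be called abundant, scarce or absent. The sources used here state neither the base of the logarithm nor the direction (higher meaning more RNA), so both are assumed. Array medians ran from -0.07 to 0.05. With limma, 0 of 18193 genes passed an adjusted p of 0.05, and 1645 had an unadjusted p under 0.05. Of the marker genes of mature fibres 12 of 12 were lower in aged pools (median log2 difference -2.92), and of the satellite cell markers 7 of 9 were higher (median 0.33). Because the values are centred, they cannot show whether a marker was present, only how it differed with age. In such bulk samples fewer cells of a type and less RNA per cell cannot be told apart.

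Laminins are trimers of an alpha, a beta and a gamma chain that polymerise into the sheet around each muscle fibre. Integrins are alpha-beta pairs that span the membrane: the alpha chain largely sets which ligand is bound, and the beta tail recruits talin, integrin-linked kinase and vinculin to the actin skeleton. Dystroglycan is the other main laminin receptor of muscle, while nidogens, perlecan and agrin tie the laminin sheet to collagen IV or to the cell surface.

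Across the family, aged cells leaned slightly towards higher values, with no gene passing the adjusted threshold. Of the 44 genes, 29 were higher and 15 lower in aged pools, with a median log2 difference of 0.26, against 0.05 over all genes, of which 53.8% were higher. An unadjusted p under 0.05 was reached by 5 genes (11.4%), where 9.04% of all genes reached it. Higher among them were Lama2, Itga10 and Itgb7 (6.82% of the 44, against 2.85% of all genes), and lower were Itga9 and Ilk (4.55%, against 6.19%). These shares rest on few genes and moved with single pools: leaving out young replicate 1 gave 2 higher and 0 lower genes, leaving out young replicate 2 gave 0 and 1, leaving out aged replicate 1 gave 4 and 2, and leaving out aged replicate 2 gave 2 and 1.

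Both aged pools lay above both young pools for 14 of the 44 genes (31.8%, against 19.9% of all genes) and below them for 6 (13.6%, against 16.9%). The ages overlapped for the other 24. At least a 2-fold difference was seen for 4 higher genes (9.09%, against 5.15%) and 3 lower ones (6.82%, against 9.44%). For 23 of the 44 the difference was smaller than its standard error, and for 23 it had the same sign between pools numbered 1 and between pools numbered 2. An exact permutation test of 2 pools against 2 cannot give a two-sided p below 0.333, so single genes were tested only in the fit over all genes.

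**Figure D1:**
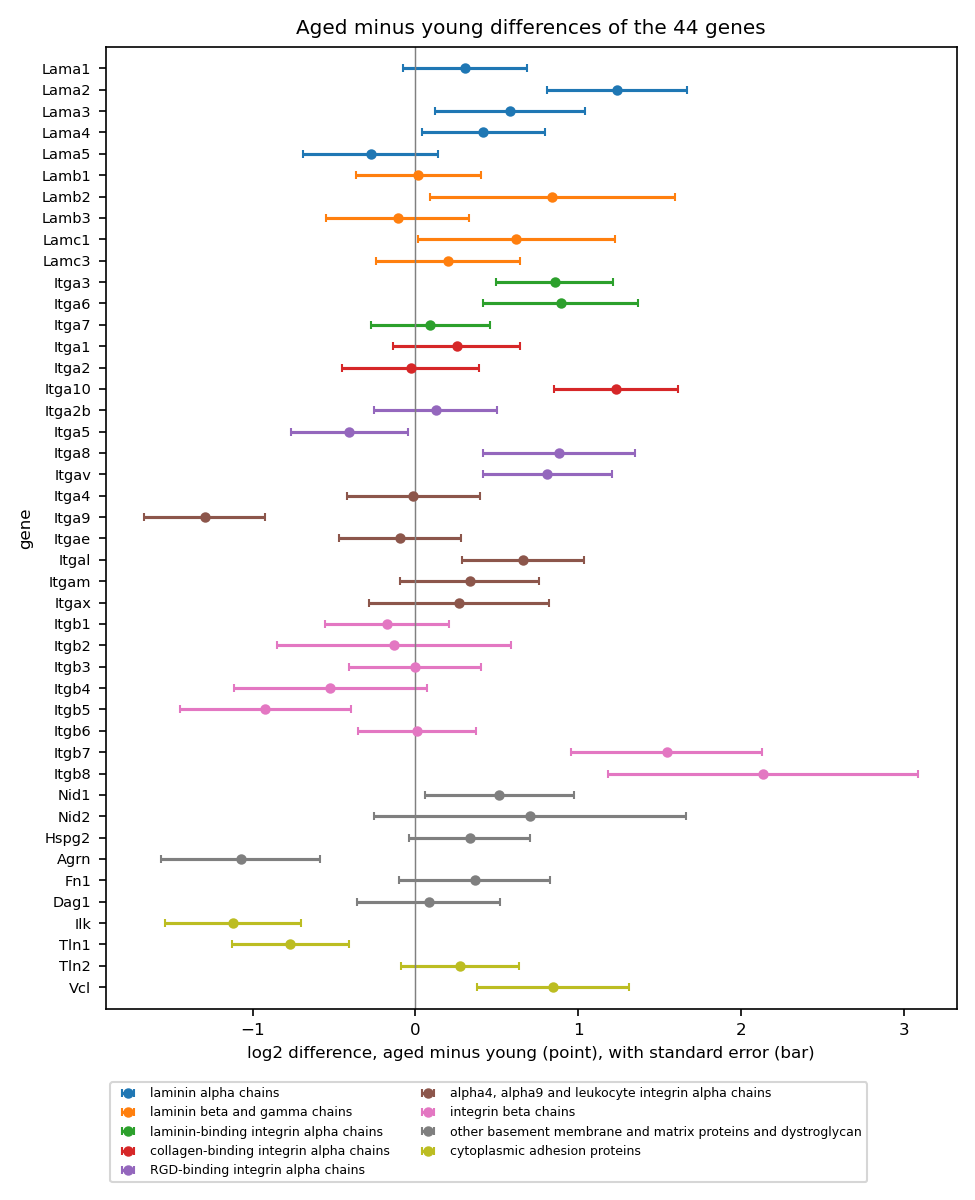
Log2 differences, aged minus young, of the 44 genes on the horizontal axis, coloured by group; points are fitted differences and bars their standard errors (n = 2 pools per age). Itgb8 lies farthest to the right at 2.14 with 1 of the longest bars, Itga9 farthest to the left at -1.30, and the bars of many genes cross 0.

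Laminin alpha chains, which carry the domains that receptors bind, had 4 of 5 genes higher and a median difference of 0.42 (0.43 between pools numbered 1 and 0.51 between those numbered 2). Lama2, the alpha chain of the main laminin of the muscle basement membrane, whose loss causes congenital muscular dystrophy, stood at -0.35 and -0.72 in the young pools and at 0.35 and 1.07 in the aged pools. The ages did not overlap, and the values closest to the middle mirror each other because a single probe set was centred on its own median. The difference was 1.24 ± 0.43, a 2.36-fold higher value (unadjusted p = 0.031, adjusted p = 0.462 with limma), and 0.88 to 1.60 when 1 pool was left out. Lama4, the alpha chain of vessel walls and of synaptic and embryonic muscle, read -0.02 and -0.31 in young and 0.41 and 0.10 in aged pools. Its ages too did not overlap in the mean of its 2 probe sets, but they overlapped in each probe set (differences of 0.85 and -0.012). The Lama4 difference of 0.42 ± 0.38 was close to its error. Lama5, a widespread chain of adult basement membranes, read 0.47 and -0.25 in young against -0.13 and -0.21 in aged pools, and its difference was -0.28 ± 0.42. Its young pools lay on both sides of the aged ones. Lama1, the early embryonic chain, differed by 0.31 ± 0.38 and Lama3, the chain of epithelial laminin, by 0.58 ± 0.46. Lama1 came to 0.073 without young replicate 2 and Lama3 to 0.20 without young replicate 1.

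Laminin beta and gamma chains overlapped between the ages in 5 of 5 cases, and the alpha chains in 2 of 5, where 36.8% of all genes show no overlap. Whether the alpha chains differ from the others was not tested. Lamb1, the beta chain that pairs with Lama2 in most of the fibre surface, differed by 0.018 ± 0.39 with a 95% interval of -0.94 to 0.98. Lamb2, the beta chain enriched at the neuromuscular junction, read -0.24 and 0.24 in young and -0.24 and 1.92 in aged pools. Only the second aged pool was high, and the difference of 0.84 ± 0.75 became -0.24 without aged replicate 2. Lamc1, the gamma chain of nearly all muscle laminins, read 0.27 and -1.21 in young and -0.20 and 0.50 in aged pools, a difference of 0.62 ± 0.61. Here 1 low young pool set the difference, which was -0.12 without young replicate 2. Lamb3, of epithelial laminin, stood at -0.11 ± 0.44 and Lamc3 at 0.20 ± 0.44.

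Several stromal marker lists were higher in aged pools too, and the endothelial list was lower. For the fibro-adipogenic progenitor list this held for 7 of 8 genes (mean of the list -0.50 and -0.42 in young, 0.64 and 0.46 in aged pools). Pericyte and smooth muscle markers were higher in 9 of 9 (-0.42 and -0.64 against 0.88 and 0.46), and Schwann cell markers in 6 of 6 (-0.34 and -0.27 against 0.42 and 0.54). Endothelial markers, of cells that make vessel basement membrane, were lower in 8 of 10 (0.34 and 0.16 against -0.24 and -0.65). Lama2 is made by several stromal cell types, and the part of these cells in the laminin and integrin differences was not tested.

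**Figure D2:**
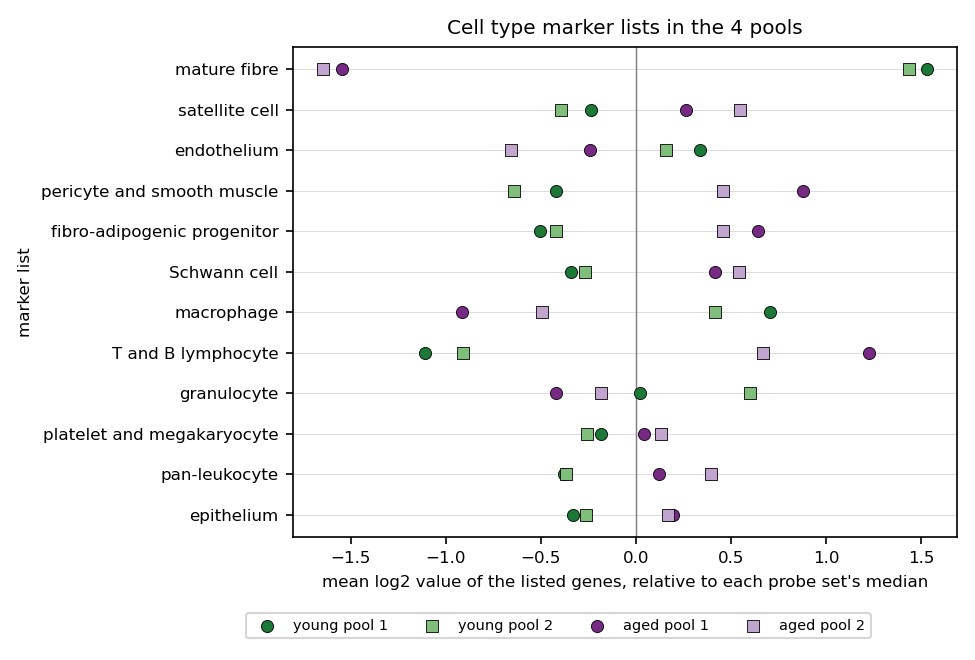
Mean log2 value of each cell type marker list (vertical axis) in the 4 pools, relative to each probe set's median; circles are pools numbered 1 and squares pools numbered 2. The mature fibre list spans from -1.64 in aged to 1.53 in young pools, wider than any other list, and the lymphocyte, pericyte and progenitor lists are higher in aged pools.

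All 3 integrin alpha chains that bind laminin had higher means in aged pools (median difference 0.86), but the member typical of muscle differed least. Itga7, the main laminin-binding alpha chain of muscle fibres and satellite cells, read -0.19 and 0.06 in young and 0.12 and -0.06 in aged pools. The ages interleaved, and the difference of 0.09 ± 0.37 had a 95% interval of -0.82 to 1.01, so changes of up to about that size in either direction are not resolved. Itga6, the alpha chain of many epithelia, endothelia and stem cells, differed by 0.89 ± 0.48 (adjusted p = 0.697), and Itga3, a chain of epithelium and kidney, by 0.86 ± 0.36 (adjusted p = 0.584). Both had aged pools above young ones in the gene value, where 19.9% of all genes did. The ages overlapped, however, in the Itga6 probe set at 0.83 and in the Itga3 probe set at 0.37. For Itga6 the difference ran from 0.50 to 1.29 when 1 pool was left out.

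Among the collagen-binding alpha chains 1 of 3 stood apart. Itga10, a collagen receptor best known from cartilage, read -0.45 and -0.79 in young and 0.45 and 0.77 in aged pools, without overlap. It was 2.35-fold higher (1.23 ± 0.38, unadjusted p = 0.020, adjusted p = 0.399 with limma), and its difference stayed between 1.07 and 1.40 when 1 pool was left out. Itga1 and Itga2, the common collagen receptors of stromal cells and of epithelium and platelets, differed by 0.25 ± 0.39 and -0.03 ± 0.42. The 2 probe sets of Itga1 stood at 0.93 and -0.43, and the ages overlapped in both.

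Chains that recognise the Arg-Gly-Asp motif of fibronectin and vitronectin were mixed. Itgav, which pairs with several beta chains and can activate latent TGF-beta, differed by 0.81 ± 0.40, with all 5 of its probe sets higher in aged pools (0.29 to 1.76). Itga8 stood at 0.88 ± 0.47 (0.48 without young replicate 1). Itga5, the classical fibronectin receptor chain, stood at -0.41 ± 0.36, with both aged pools below the young ones in the gene value. The ages overlapped, however, in each of its 4 probe sets (differences of 0.10, -0.29, -0.98 and -0.46). With the median over probe sets Itga5 stood at -0.08. Itga2b, the platelet chain, stood at 0.12 ± 0.38, beside platelet markers of which 4 of 6 were higher (median 0.22). Fn1, their ligand fibronectin, read 0.41 and -0.57 in young and 0.19 and 0.38 in aged pools. Its ages overlapped, with a difference of 0.37 ± 0.46 and a 95% interval of -0.79 to 1.52.

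Itga9, which pairs with Itgb1 and binds tenascin-C and osteopontin, had the smallest p of the family. Its gene values were 0.94 and 1.04 in young and -0.48 and -0.13 in aged pools, well apart. The difference was -1.30 ± 0.37, a 2.46-fold lower value in aged pools (unadjusted p = 0.015, adjusted p = 0.355 with limma), and -1.47 to -1.12 when 1 pool was left out. With the median over probe sets in place of their mean it was -0.49 (adjusted p = 0.812), and the unadjusted p was no longer under 0.05 there, with the probe set of largest SD, with _x_at and _s_at probe sets left out, or with a variance trend. Its 3 probe sets stood at -0.99, -1.83 and -1.07 but did not agree on which young pool was high. The first read 0.26 in both young pools, the second 0.02 and 3.27, and the third 2.55 and -0.42, so the even young values of the gene are an average of uneven probe sets. Itga4, the other alpha chain that meets VCAM1 and fibronectin without the Arg-Gly-Asp motif, differed by -0.01 ± 0.41.

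The leukocyte integrins held the beta chain Itgb7 as their only gene with an unadjusted p under 0.05. Itgb7, which pairs with Itga4 or Itgae on lymphocytes, read -0.23 and -1.42 in young and 0.23 and 1.21 in aged pools. The ages did not overlap, and it was 2.91-fold higher (1.54 ± 0.58, unadjusted p = 0.041, adjusted p = 0.514 with limma; 0.94 without young replicate 2 and 2.14 without young replicate 1). Itgal, the alpha chain of lymphocyte LFA-1, stood at 0.66 ± 0.37, with aged above young pools. The 2 probe sets of Itgal stood at 1.58, with aged above young pools, and at -0.26, where the ages overlapped. Lymphocyte markers were higher in 9 of 9 cases beside Itgb7 and Itgal (list mean -1.11 and -0.91 in young, 1.23 and 0.67 in aged pools). The part of these markers in the differences was not tested. Itgam and Itgax, alpha chains of myeloid cells, stood at 0.33 ± 0.43 and 0.27 ± 0.55, while macrophage markers were lower in 9 of 9 cases (0.71 and 0.42 against -0.91 and -0.50). Itgb2, the beta chain shared by Itgal, Itgam and Itgax, read high in the pools numbered 1 and low in those numbered 2 at either age, and its difference was -0.13 ± 0.72. Itgae stood at -0.09 ± 0.38, the mean of 2 probe sets that went opposite ways. They stood at 0.67, with aged above young pools, and at -0.86, with aged below young pools.

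Itgb1, the beta chain of most matrix-binding integrins and the partner of Itga7, differed little. It read -0.11 and 0.27 in young and 0.04 and -0.23 in aged pools, interleaved. Its difference was -0.17 ± 0.38 (95% interval -1.12 to 0.78). Of its 6 probe sets 4 were lower and 2 higher.

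Itgb8, a partner of Itgav in TGF-beta activation, had the greatest difference of the 44 genes and 1 of the greatest errors. It read -1.18 and -0.12 in young and 2.87 and 0.12 in aged pools. Although the ages did not overlap, 1 aged pool carried most of the difference of 2.14 ± 0.95 (adjusted p = 0.611), which was 0.76 without aged replicate 1. Itgb5, another Itgav partner, stood at -0.92 ± 0.53 with all 4 probe sets lower, and -0.32 without aged replicate 2. The ages overlapped in its probe sets at -0.32, -0.70 and -1.22, but not in that at -1.45. Its probe sets did not agree on which young pool was high: 1 read -0.95 and 1.60 there, and another 1.68 and -0.28. Itgb4, the hemidesmosome partner of Itga6, stood at -0.52 ± 0.59. The beta chains of platelets and epithelium, Itgb3 and Itgb6, differed by less than 0.05.

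**Figure D3:**
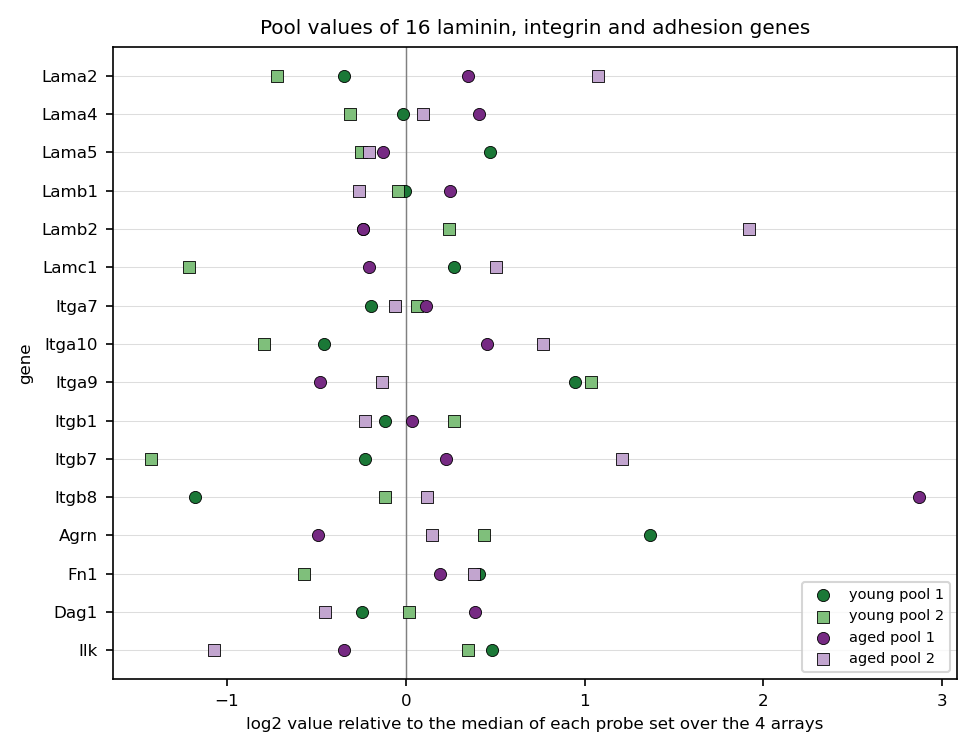
Log2 values of 16 genes (vertical axis) in the 4 pools, relative to each probe set's median; circles are pools numbered 1 and squares pools numbered 2. Lama2, Itga10 and Itgb7 have both aged pools to the right of both young pools, and Itga9, Agrn and Ilk have them to the left. The ages of Itga7 and Itgb1 interleave, the young pools of Dag1 lie between its aged pools, and the circles of Lamb2 coincide at -0.24.

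Among the other basement membrane and matrix proteins with dystroglycan (Fn1 included) 5 of 6 were higher, with a median of 0.35, and agrin was the exception. Agrn, the proteoglycan that clusters acetylcholine receptors and binds laminin and dystroglycan, read 1.36 and 0.44 in young and -0.49 and 0.15 in aged pools. The aged pools lay below the young ones (2.10-fold, -1.07 ± 0.49, adjusted p = 0.620 with limma), and the difference was -0.61 without young replicate 1. The 2 probe sets of Agrn did not agree on which young pool was high. The first read 2.72 and -0.30 in young and -0.96 and 0.30 in aged pools, with overlap. The second read 0.0096 and 1.17 in young and -0.021 and -0.0096 in aged pools. Dag1, dystroglycan, read -0.25 and 0.02 in young and 0.38 and -0.45 in aged pools, a difference of 0.08 ± 0.44 with a 95% interval of -1.02 to 1.18. The laminin linkers Nid1 and Nid2 differed by 0.52 ± 0.46 and 0.70 ± 0.96 (0.11 for Nid1 without aged replicate 1), and Hspg2, perlecan, by 0.33 ± 0.37. Nid2 spread over 2.52 between the young pools, so its difference was within the spread of its replicates.

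Of the cytoplasmic proteins that connect integrin tails to actin, 2 of 4 were lower and 2 higher. In none of these 4 did the ages overlap in the gene value, where 36.8% of all genes show no overlap. Among single probe sets, however, at least 1 overlapped in each of Tln1, Tln2 and Vcl. Those of Tln2 stood at 0.087, 1.41 and -0.68. Ilk, the pseudokinase scaffold on beta tails, read 0.48 and 0.35 in young and -0.35 and -1.07 in aged pools. It was 2.18-fold lower in aged pools (-1.12 ± 0.42, unadjusted p = 0.039, adjusted p = 0.499 with limma; -1.48 to -0.76 when 1 pool was left out). Tln1, the talin of most cells, stood at -0.77 ± 0.36 and Tln2, the talin abundant in striated muscle, at 0.27 ± 0.36. Vcl, vinculin, stood at 0.84 ± 0.47 and at 0.34 without aged replicate 1. Fibre markers, lower in 12 of 12 cases (list mean 1.53 and 1.44 in young, -1.54 and -1.64 in aged pools), shared the direction of Ilk, and their part in its difference was not tested.

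Probe sets of the same gene often disagreed, which bears on every average above. Of the 28 genes with more than 1 probe set, 17 had probe sets of opposite sign, and in 17 the probe sets spanned over 1 on the log2 scale. Lamc1 was the widest: 1 probe set differed by 2.46, with young pools at -0.67 and -2.08 and aged pools at 1.49 and 0.67, and the other by -1.22. Tln1 had 1 probe set at -2.25, with young pools at 1.42 and 0.94 and aged pools at -1.20 and -0.94, beside values of -0.08 and 0.02. For Fn1 the pair stood at 1.36 and -0.63. Dag1 ran from -0.51 to 0.62, Itgb1 from -1.11 to 0.56, Lamb1 from -0.88 to 0.98 and Lama5 from -0.66 to 0.33. Among the 5 with an unadjusted p under 0.05, 4 have a single probe set (Lama2, Itga10, Itgb7 and Ilk), so each of them rests on a single reading.

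**Figure D4:**
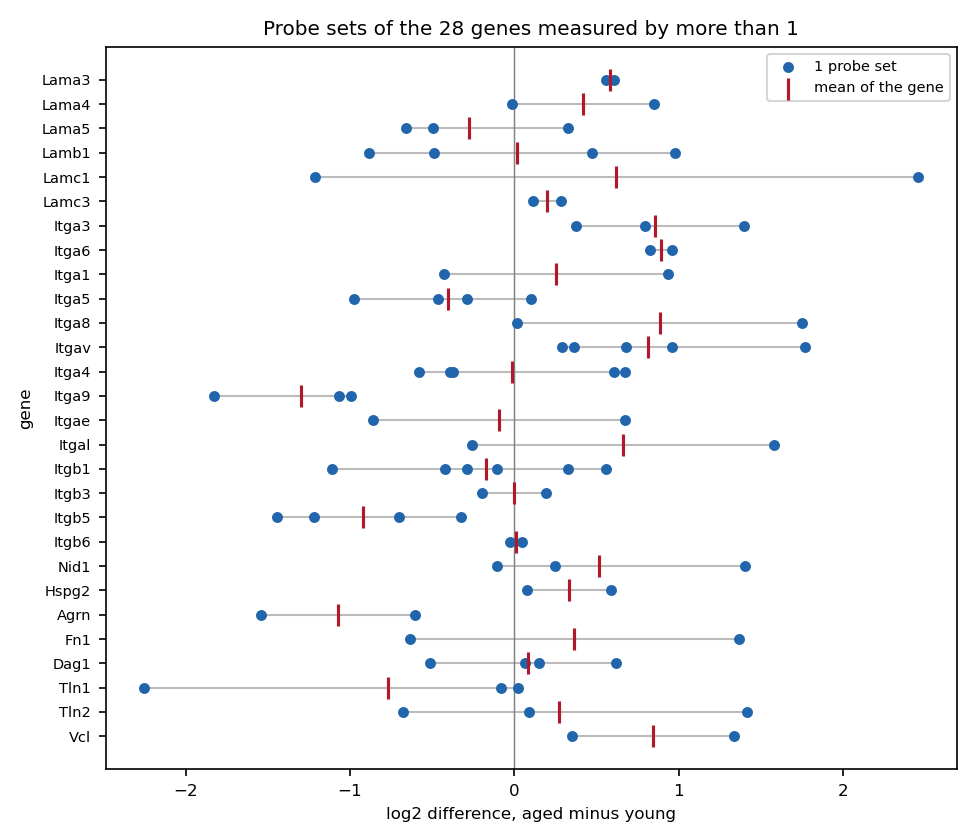
Log2 differences, aged minus young, of each probe set (blue points) and their mean (red bars) for the 28 genes with more than 1 probe set. Lamc1 reaches from -1.22 to 2.46 and Tln1 from -2.25 to 0.02, while all probe sets of Itga9, Itgb5 and Agrn lie below 0 and all of Itgav, Itga3 and Itga6 above it.

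Promoters are shown for Lama2, Itga10, Itgb7, Itga9 and Ilk, the genes with the smallest p-values, so that their upstream sequence can be read beside their values. Each runs 5′ to 3′ on the gene's strand from 250 bases before to 50 after the first start listed (RefSeq, GRCm38.p6), and capitals mark E-boxes (CANNTG, the same on both strands), the class of site that myogenic factors such as MyoD bind.
Lama2, chr10:27616893-27617192, - strand: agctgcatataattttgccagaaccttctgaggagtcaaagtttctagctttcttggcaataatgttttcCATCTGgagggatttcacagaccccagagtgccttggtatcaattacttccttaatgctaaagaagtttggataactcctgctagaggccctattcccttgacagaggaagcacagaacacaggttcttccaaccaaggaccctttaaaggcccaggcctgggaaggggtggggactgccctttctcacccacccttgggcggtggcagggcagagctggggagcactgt
Itga10, chr3:96645334-96645633, + strand: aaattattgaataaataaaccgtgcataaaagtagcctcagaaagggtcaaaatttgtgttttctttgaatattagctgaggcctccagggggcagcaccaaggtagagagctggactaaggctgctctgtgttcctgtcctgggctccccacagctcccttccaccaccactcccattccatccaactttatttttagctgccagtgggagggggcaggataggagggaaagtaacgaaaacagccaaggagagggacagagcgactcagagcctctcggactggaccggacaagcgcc
Itgb7, chr15:102231886-102232185, - strand: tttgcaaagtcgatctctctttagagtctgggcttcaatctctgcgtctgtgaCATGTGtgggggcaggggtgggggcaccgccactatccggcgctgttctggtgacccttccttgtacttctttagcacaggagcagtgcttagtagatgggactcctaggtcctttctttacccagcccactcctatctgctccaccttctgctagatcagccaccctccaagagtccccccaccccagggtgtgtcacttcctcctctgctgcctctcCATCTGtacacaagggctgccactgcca
Itga9, chr9:118711442-118711741, + strand: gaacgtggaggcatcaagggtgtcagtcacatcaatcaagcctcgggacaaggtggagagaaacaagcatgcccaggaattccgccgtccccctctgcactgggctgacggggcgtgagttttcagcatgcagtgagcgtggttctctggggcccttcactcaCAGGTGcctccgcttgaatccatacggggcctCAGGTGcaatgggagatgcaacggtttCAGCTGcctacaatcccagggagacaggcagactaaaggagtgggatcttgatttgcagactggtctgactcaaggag
Ilk, chr7:105736340-105736639, + strand: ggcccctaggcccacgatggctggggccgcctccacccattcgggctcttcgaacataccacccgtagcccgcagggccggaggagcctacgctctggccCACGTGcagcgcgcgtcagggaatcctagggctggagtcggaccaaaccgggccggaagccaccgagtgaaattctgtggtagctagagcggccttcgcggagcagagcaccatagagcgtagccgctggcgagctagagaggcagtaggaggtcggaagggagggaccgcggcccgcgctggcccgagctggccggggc

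These windows held 1 E-box in Lama2, 0 in Itga10, 2 in Itgb7, 3 in Itga9 and 1 in Ilk. Promoters were listed for 29 of the 44 genes, and 72.4% of them held at least 1 E-box, against 72.1% of 27025 promoters of the same length. The GC box (GGGCGG or, on the other strand, CCGCCC) occurred in 55.2% of the 29, against 35.9% of all, and in the window of Lama2 but not in those of Itga10, Itgb7, Itga9 and Ilk. The TATA box (TATAAA or TTTATA) occurred in 0 of the 29, against 14.2% of all. The median number of CpG dinucleotides was 13 in the 29 windows and 7 in all. Ilk held 29 and Lama2 held 1. A match is a string of letters and shows no binding.

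Neighbouring gene lists are given by their counts, and differences between lists were not tested. Of 20 other basement membrane genes, including collagen IV chains, 13 were higher (53.8% of all genes were) and 0 reached an unadjusted p under 0.05 in limma (9.04% of all genes did). Leading by p were Egflam, pikachurin, a dystroglycan ligand (-1.19 ± 0.50), Ntn4, a netrin that binds laminin (-0.70 ± 0.36), Col4a2 (0.89 ± 0.61) and Npnt, an Itga8 ligand (-0.56 ± 0.42). Without 1 pool these ran from -1.76 to -0.62 for Egflam, 0.094 to 1.68 for Col4a2 and -0.89 to -0.22 for Npnt. In the dystrophin complex and the enzymes that glycosylate dystroglycan, 11 of 15 genes were lower, where 8403 of all 18193 genes were, with a median of -0.27. Beside them, 12 of 12 fibre markers were lower (median -2.92), and the part of these markers was not tested. Dystrobrevin, Dtna (-1.08 ± 0.36), had an unadjusted p under 0.05. Sgcd (-1.32 ± 0.57) and Sgcb (-1.07 ± 0.52), sarcoglycans of the same complex, and Pomgnt1 (-0.73 ± 0.41), which extends the sugars of dystroglycan, followed. Without young replicate 1 Sgcd stood at -0.59 and Sgcb at -0.57, and without aged replicate 2 Pomgnt1 stood at -0.40.

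The list of integrin adhesion partners holds tail-binding proteins, adaptors further inside the cell and membrane partners. In it 17 of 27 genes were lower, where 8403 of all 18193 genes were, and the median difference was -0.30. Of the 27, 4 had an unadjusted p under 0.05 in limma, all lower, where 6.19% of all genes were. Itgb1bp2, melusin, a chaperone of striated muscle that binds the Itgb1 tail, read 1.96 and 1.12 in young and -1.57 and -1.12 in aged pools. The difference was -2.89 ± 0.45 (adjusted p = 0.150 with limma), without overlap. Itgb1bp1, ICAP1, an inhibitor of the same tail, read 1.06 and 1.39 in young and -2.31 and -1.06 in aged pools, a difference of -2.91 ± 0.52 (adjusted p = 0.166). Paxillin, Pxn (-1.27 ± 0.39), and the blood cell kindlin Fermt3 (-1.0 ± 0.39) completed the 4. Syndecan-4, Sdc4, the protein the cells were sorted on and a member of this list, is named after its values were seen and stood at 1.22 ± 0.53 (0.57 without young replicate 2 and 1.87 without young replicate 1). Fibre markers shared the direction of melusin, and their part in it was not tested. The Itgb1 gene itself differed by -0.17 ± 0.38, and whether the partners differ from it was not tested.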

How the data were processed

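RNA of 4 pools of syndecan-4-sorted satellite cells, 2 young and 2 aged, went through 2 rounds of linear amplification and biotin labelling for Affymetrix arrays, per the labels' protocols. The authors deposited 1 table of 45101 probe sets, taken as log2 values, each probe set centred so that its 4 values have a median of 0 (to within 5e-07). How background, probe summary and normalization were handled is stated in none of the sources used here. Gene names came from the platform annotation: 34945 carried 1 gene symbol, 932 several (not used) and 9160 none, beside 64 controls. A gene's value is the mean of its probe sets (18193 genes).

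The ages were set against each other in limma 3.58.1 under R 4.3.3 (lmFit, then eBayes without variance trend, two-sided, aged minus young, all 4 arrays), with Benjamini-Hochberg adjustment over all genes. The ± is the fit's standard error (n = 2 pools per age, 2 residual and 3.56 prior degrees of freedom). The fit was tested on simulated data. Group medians are descriptions. The genes, lists and alternatives were chosen with earlier results of these data known. Pool values are given for genes with an unadjusted p under 0.05 or at least a 2-fold difference and for the muscle laminins, their receptors and Fn1. Up to 4 genes per neighbouring list are named, by smallest p. Alternatives were quantile normalization, other rules for probe sets, a variance trend, a replicate block and leaving out each pool. Figures used matplotlib 3.10.9.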

Additional observations from a re-analysis of the deposited data

How the results depend on the processing

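The sign of the difference held in 23 of the 44 genes under every alternative run, and did not for Lamb2 (0.84) and Nid2 (0.70) among the others. In these alternatives no adjusted p of the 44 went below 0.05 (the lowest was 0.235, with the variance trend). With quantile normalization Itga4 stood at 0.053 and Itgb6 at -0.021. Taking for each gene the probe set of largest SD, which is itself picked by its values, the genes with an unadjusted p under 0.05 were Fn1, Lamc1 and Tln1 in place of the 5, Itga4 stood at 0.67, Itgb3 at 0.19 and Dag1 at -0.51. With the median over probe sets Lamb1 stood at -0.27 and Itga4 at 0.11, and with probe sets of the _x_at and _s_at kinds left out Lamb1 stood at -0.13. The lower genes at that p numbered 1 in place of 2 with the largest SD, with the median, without those kinds and with the variance trend, Itga9 being the gene lost in the last 3. The replicate block (numbers are shared by label only, and the correlation over genes of the deviations was 0.14) left 2 higher and 2 lower genes at that p, Itgb7 dropping out. With the variance trend 221 of 18193 genes passed an adjusted p of 0.05 in limma. Itgb1bp2 and Itgb1bp1, each with a single probe set, were among them (adjusted p = 0.0268 and 0.0480, against 0.150 and 0.166 without the trend). The cause of these shifts was not tested.

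With the largest SD the group medians were 0.47 for laminin beta and gamma chains, 0.93 for collagen-binding, 0.94 for RGD-binding and 0.30 for alpha4, alpha9 and leukocyte alpha chains. They were 0.65 for other basement membrane and matrix proteins with dystroglycan, 0.11 for cytoplasmic proteins (-0.25 in the report's setting) and 0.40 for all 44. The median of the basement membrane and matrix group was 0.45 with those kinds left out. The cytoplasmic one was -0.19 with quantile normalization and -0.061 with the median. Without 1 pool the medians ran from -0.18 to 0.13 for alpha4, alpha9 and leukocyte chains, 0.0064 to 0.50 for collagen-binding chains and 0.039 to 0.33 for laminin beta and gamma chains. They ran from -0.28 to 0.17 for integrin beta chains, -0.27 to -0.19 for cytoplasmic proteins and 0.27 to 0.54 for laminin alpha chains. For laminin-binding chains the range was 0.50 to 0.93, for other basement membrane and matrix proteins with dystroglycan 0.14 to 0.38 and for RGD-binding chains 0.34 to 0.49. The higher genes with an unadjusted p under 0.05 then numbered 0 to 4 and the lower ones 0 to 2.

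Without 1 pool, the differences that changed sign ran from -0.34 to 0.50 for Dag1, -0.12 to 0.85 for Fn1, -0.32 to 0.27 for Itga2, -0.091 to 0.34 for Itga2b, -0.36 to 0.33 for Itga4, -0.035 to 0.22 for Itga7, -0.31 to 0.12 for Itgae, -0.038 to 0.71 for Itgam, -0.36 to 0.89 for Itgax, -0.37 to 0.020 for Itgb1, -0.96 to 0.69 for Itgb2, -0.25 to 0.24 for Itgb3, -1.18 to 0.13 for Itgb4, -0.11 to 0.13 for Itgb6, -0.64 to 0.084 for Lama5, -0.23 to 0.27 for Lamb1, -0.24 to 1.92 for Lamb2, -0.55 to 0.33 for Lamb3, -0.12 to 1.36 for Lamc1, -0.24 to 0.64 for Lamc3 and -0.55 to 1.96 for Nid2. Of those that kept their sign, Itga1 ran from 0.0064 to 0.50, Lama1 from 0.073 to 0.54, Lama3 from 0.20 to 0.95, Lama4 from 0.26 to 0.58, Nid1 from 0.11 to 0.92, Hspg2 from 0.17 to 0.50, Tln2 from 0.15 to 0.40 and Itga8 from 0.48 to 1.28.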

Other observations

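Several high values of the family stood in a single aged pool and a single probe set. In aged pool 1, 1 of the 2 probe sets of Itga8, a chain of smooth muscle and mesangial cells, reached 3.02, and the other read -0.86. In aged pool 2, 1 of the 3 probe sets of Itga3 reached 2.30 while the others read 0.18 and -0.18. For Nid1, 1 probe set stood at 1.56 in aged pool 1 and at -0.10 in aged pool 2. These genes were singled out after their values were seen.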
